A study of Rattus norvegicus with 4 samples.

Results

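The retinoic acid receptor genes Rara and Rarb and the retinoid X receptor genes Rxra, Rxrb and Rxrg were read by 9 probe sets on an Affymetrix rat array, out of 8799 probe sets in all and 7006 that carry 1 gene symbol. They were taken by symbol. Rara and Rxrg had 3 probe sets each, and Rarb, Rxra and Rxrb had 1 each. The gamma retinoic acid receptor gene, Rarg, is not analysed here. The samples were whole testis of rats put on a diet without vitamin A at 20 days of age and kept on it for 9 weeks. The control group (VAD) is the deficient testis before treatment, and the other groups are deficient testis 4, 8 and 24 h after retinol, the alcohol form of the vitamin. All 4 groups therefore share the deficient diet. Each group is 1 deposited sample, called an array here, and the sources used here do not give strain, dose or number of animals.

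Retinol is oxidised in the tissue to retinoic acid, which binds the retinoic acid receptors (RARs). An RAR pairs with a retinoid X receptor (RXR) on DNA at retinoic acid response elements, and the pair turns from a repressor into an activator of transcription once ligand is bound. RXRs also pair with the receptors of vitamin D and thyroid hormone, with the peroxisome proliferator-activated receptors (PPARs) and with the liver X and farnesoid X receptors. In the testis RAR alpha is needed for normal spermatogenesis and acts in Sertoli cells, the somatic cells that nurse the germ cells. RXR beta also acts in Sertoli cells. Rarb is a receptor gene and a textbook retinoic acid target at once, since its own promoter holds a response element.

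That element is shown because it is the textbook ground for counting Rarb, a receptor gene, among the targets of retinoic acid. Whether it acted in these samples was not tested. The promoters of all 5 receptor genes were matched in RefSeq (assembly GRCr8), as windows of 250 bases before to 50 bases after an annotated start. The search was for 2 half-sites, each AGGTCA with A or G allowed at the first place and G or T at the third, in direct repeat with a spacer of 1, 2 or 5 bases (called DR1, DR2 and DR5), on both strands. The Rarb window held a DR5 at chr15:11336410-11336438 (GRCr8, plus strand), given with 6 bases on each side and with the 2 half-sites in capitals.
Rarb: gggaagGGTTCAccgaaAGTTCActcgca
The half-sites lay 25 to 41 bases after the annotated start. This pairing, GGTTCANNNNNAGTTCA, was found in 3 of 33469 windows of the same length (0.00896%), and a DR5 of any of the half-sites in 128 (0.382%). The exact pairing was read off the Rarb match itself, so only the share for a DR5 of any half-sites serves as its background. No DR1, DR2 or DR5 was found in the windows of Rara, Rxra, Rxrb and Rxrg. Each receptor gene had a single window, so an element elsewhere in the gene would be missed. DR1 and DR2 were found in 0.233% and 0.17% of all windows. A match of letters does not show that a receptor binds there.

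The deposited values are linear ratios per probe set with no signal level behind them, so each one shows how a probe set differed from an unstated reference, and levels cannot be ranked between genes. The VAD column lay close to that reference, with a median of 0.995 and 59.7% of probe sets within 10% of 1. Changes are log2 differences between 2 arrays. As each group is a single array, groups could not be tested against each other and no p-value was computed. The only error the values allow is the spread of 1 probe set. It was taken from 1075 genes with probe sets from different database sequences, as the SD over genes of how far the pair of changes lay apart, scaled to a single probe set (by the square root of 2). For changes from VAD this SD came to 0.42 (4 h), 0.51 (8 h) and 0.57 (24 h). Animal to animal variation is not in it.

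No receptor probe set reached a 2-fold change at any time. Against VAD, 0 of 9 passed at 4 h, 8 h and 24 h, where 3.8%, 6.57% and 8.09% of all 7006 probe sets did so. Between successive arrays 0 of 9 passed, against 1.93% of all probe sets from 4 h to 8 h and 1.76% from 8 h to 24 h. At these background shares a count of 0 among 9 probe sets says little about the receptors as a group. All 9 changes at 4 h and at 8 h lay within the spread of 1 probe set. At 24 h 8 of 9 did, and the other was a Rara probe set. Among all probe sets 69.9%, 69.6% and 71.7% lay within that spread. The receptor changes ran from -0.23 to 0.38 at 4 h, from -0.29 to 0.42 at 8 h and from -0.50 to 0.69 at 24 h. Their medians of 0.06, 0.00 and -0.13 stood beside -0.09, -0.11 and -0.11 over all probe sets.

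**Figure D1:**
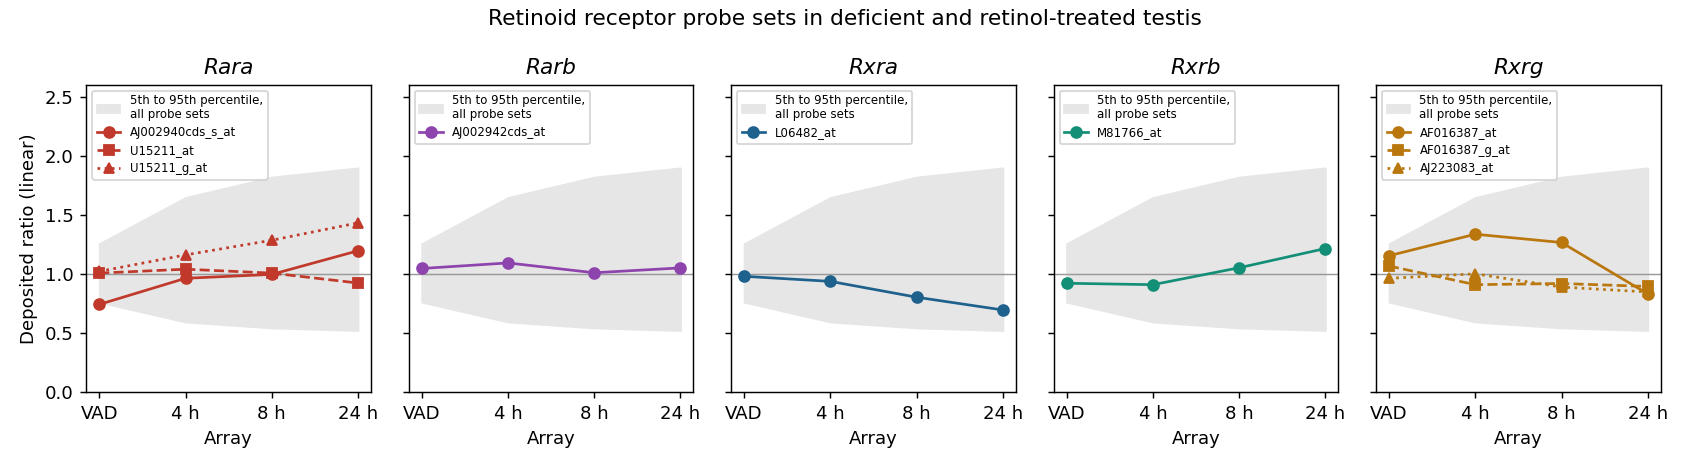
Deposited linear ratio (vertical axis) of each receptor probe set on the 4 arrays (horizontal axis, in order of time but not to scale), 1 panel per gene and 1 line per probe set; the shaded band runs from the 5th to the 95th percentile of all probe sets with 1 symbol. Rxra goes from 0.981 to 0.696 and Rxrb from 0.922 to 1.216, both inside the band.

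Rara, whose receptor acts in Sertoli cells, gave 2 probe sets that were higher after retinol and 1 that was not. The probe set AJ002940cds_s_at started from a ratio of 0.743 in VAD and stood at 0.964 (4 h), 0.997 (8 h) and 1.197 (24 h). It was lowest in VAD and higher on each later array. Its change at 24 h was 0.69, or 1.61-fold, which is 1.21 times the spread of 1 probe set and larger in size than the change of 79.8% of all probe sets. It was the 1 of 9 past 1.5-fold at that time, where 27.2% of all probe sets were. Its VAD ratio was itself low, with only 4.11% of probe sets below it. Measured from the reference of the ratios (the value 1) in place of the VAD array, its 24 h change was 0.26. The ending _s_at marks probes that can match more than 1 transcript, so this value may hold signal of other sequences.

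The other Rara probe sets come from a single database sequence and differed from each other. U15211_g_at stood at 1.022, 1.162, 1.286 and 1.433 in VAD and at 4, 8 and 24 h. It too was higher on each later array, and its 24 h change of 0.49 (1.40-fold) was nearly the same when taken from the reference (0.52). U15211_at stood at 1.008, 1.041, 1.008 and 0.924, with its lowest value at 24 h and a change there of -0.13. The changes of the U15211 pair were 0.61 apart at 24 h. Among 759 pairs of probe sets from the same sequence, 75.0% were closer together, and the median distance was 0.36. A disagreement of this size was therefore common on these arrays. The mean of the 3 probe sets was 0.20, 0.25 and 0.35 at the 3 times, and at 24 h its members ran from -0.13 to 0.69.

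Rarb, the receptor gene with the element shown above, had the flattest record of the 9 probe sets. Its probe set AJ002942cds_at gave a ratio of 1.047 in VAD and of 1.094 (4 h), 1.011 (8 h) and 1.052 (24 h) after retinol. The highest of these was 1.08 times the lowest, a span smaller than that of all but 2.44% of probe sets. The changes against VAD were 0.06, -0.05 and 0.01. Which Rarb transcripts the probes read, and whether they were above background, is not given by the ratios, so a flat ratio does not tell an unchanged transcript from one too dim to be read. Of the genes on the array, 5 had a DR5 in their window, Rarb and 4 others. At 8 h 1 of the 5, the uncharacterised LOC102555617, was past 2-fold (1.23), and at 4 h and 24 h none was. Of the 3879 genes with a window 2.78%, 4.87% and 6.03% passed at the 3 times.

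Rxra and Rxrb, both common partners of the RARs, differed in opposite directions. Rxra (probe set L06482_at) had ratios of 0.981, 0.938, 0.804 and 0.696 in VAD and at 4, 8 and 24 h. It was lower on each later array, with changes of -0.06, -0.29 and -0.50, the last a 1.41-fold lower ratio. Rxrb (M81766_at) had ratios of 0.922, 0.910, 1.053 and 1.216. It stood close to VAD at 4 h and above it on both later arrays, with changes of -0.02, 0.19 and 0.40, the last 1.32-fold. The Rxra and Rxrb changes were 0.89 apart at 24 h. A distance between 2 genes does not depend on how arrays are scaled, and here it was 1.11 times the SD expected of 2 single probe sets (0.81).

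Rxrg, the third RXR gene, stood below VAD at 24 h on all 3 probe sets, by amounts within the spread. AF016387_at had ratios of 1.155, 1.337, 1.267 and 0.832, high on the first 3 arrays and low at 24 h. Its change from 8 h to 24 h was -0.61, a 1.52-fold lower ratio and 1.89 times the spread for that step (0.32). Only 3.45% of probe sets had a more negative change at this step, and it was the 1 receptor probe set of 9 past 1.5-fold, where 7.59% of all probe sets were. The partner from the same sequence, AF016387_g_at, had ratios of 1.068, 0.910, 0.920 and 0.895, already lower at 4 h and level afterwards. Its change from 8 h to 24 h was -0.04, so the step was read by only one of the pair, and 87.1% of same-sequence pairs were closer together. AJ223083_at, from another sequence, had ratios of 0.964, 1.002, 0.890 and 0.848. Its change over that step was -0.07. Against VAD at 24 h the probe sets were at -0.47, -0.25 and -0.18, with a mean of -0.30.

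**Figure D2:**
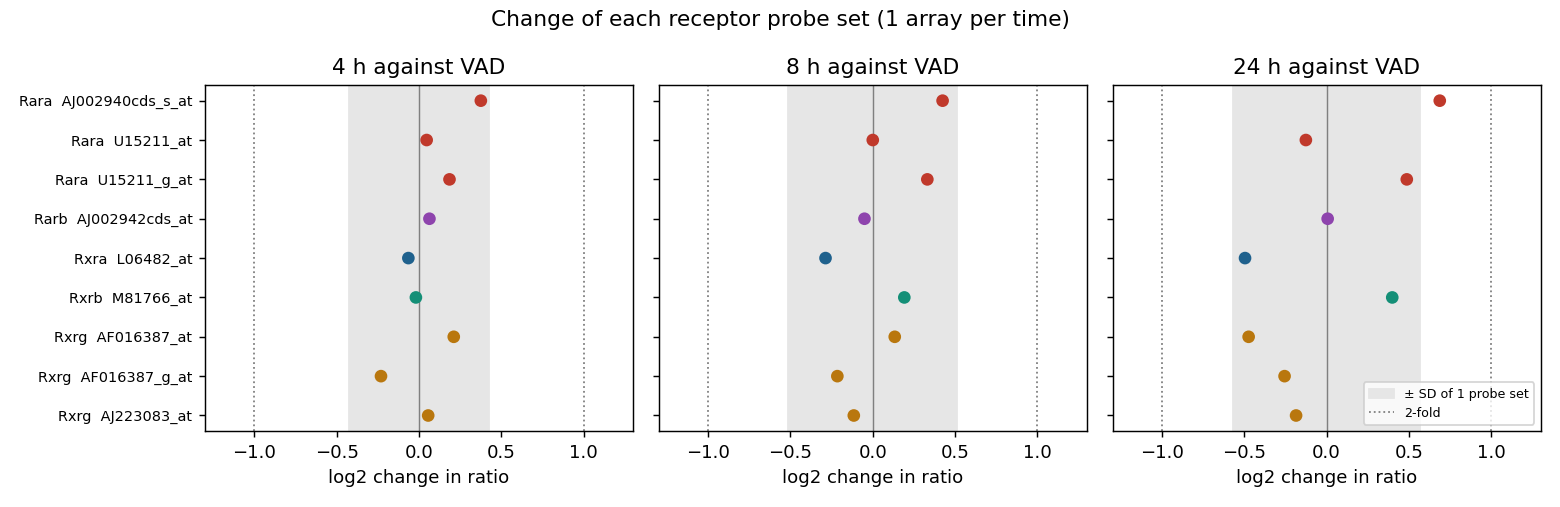
Log2 change in deposited ratio (horizontal axis) of each receptor probe set (vertical axis) at 4, 8 and 24 h against VAD; the shaded band is the spread of 1 probe set (SD, 0.42, 0.51 and 0.57) and dotted lines mark 2-fold. Of the 9, the Rara probe set AJ002940cds_s_at is the one outside the band, at 0.69 at 24 h, and none reaches 2-fold.

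In order of the 24 h change of genes, Rxrb (0.40) and Rara (0.35) stood above VAD, Rarb (0.01) was level with it, and Rxrg (-0.30) and Rxra (-0.50) stood below it. Neighbours in this order were 0.05, 0.34, 0.31 and 0.19 apart, each less than the SD expected from the probe sets behind them. Of the 10 pairs of receptor genes, 4 were further apart than 1 such SD at 24 h, and none was further apart than 2. The widest by this measure was Rara against Rxrg, at 0.65 or 1.41 SD. At 4 h and 8 h no pair was 1 SD apart. The 10 pairs reuse the same gene values and are not independent. How often pairs of other genes lie more than 1 SD apart was not computed, so these counts have no background. A steady order over the 4 arrays was seen in 3 of 9 probe sets, higher each time in the Rara probe sets AJ002940cds_s_at and U15211_g_at and lower each time in Rxra. Among all probe sets 8.76% were higher and 15.3% lower each time, so a steady order was common.

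The sign of these changes depends on the scaling of the arrays. Centring each array on its median probe set adds 0.09, 0.11 and 0.11 at 4, 8 and 24 h, after which Rxra and Rxrg were still below VAD at 24 h, Rxra at -0.39. The 9 probe sets of spiked-in bacterial and phage controls were lower after retinol at all 3 times, and scaling on them adds 0.55, 0.50 and 0.62. Rxra would then be at 0.13, Rxrg at 0.32 and Rxrb at 1.02 at 24 h, and all 5 receptor genes above VAD. By probe set, 3 of 9 would pass 2-fold at 24 h, all higher, where 18.5% of all probe sets would. The 5' probe sets of the control transcripts for actin, GAPDH and hexokinase exceeded the 3' ones in change by 0.71, 1.09 and 1.01 on average at the 3 times. The sources used here do not say where the receptor probe sets lie along their transcripts, and the part of this shift in their values was not tested.

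Whole testis holds several cell types, and a lower ratio from fewer cells of a type cannot be told apart from less RNA per cell. Mean ratios of 16 measured Sertoli cell markers of 22 listed were 1.03, 1.22, 1.27 and 1.21 in VAD and at 4, 8 and 24 h. Single markers lay between 0.66 and 3.01. The median ratios of this list were 0.998, 1.03, 1.05 and 0.97. Of the 16 markers 9, 7 and 7 stood above VAD at 4, 8 and 24 h, so most did not share the higher mean at 8 h and 24 h. Mean ratios of 8 of 10 Leydig cell markers were 1.04, 1.14, 1.08 and 0.86 (0.31 to 2.36). Their median ratios were 1.05, 1.15, 1.07 and 0.71, and 5, 5 and 2 of the 8 stood above VAD at 4, 8 and 24 h. Germ cell markers (15 of 17) were at 1.23, 2.16, 1.14 and 1.10 (0.61 to 7.64), highest at 4 h. Their median ratios were 1.13, 1.73, 0.99 and 1.015, and 14, 3 and 5 of the 15 stood above VAD at the 3 times. The corresponding sums were 16.4 to 20.3, 6.88 to 9.11 and 16.5 to 32.4 over the arrays. None was listed at 0. Because ratios carry no level, the labelled tissue could not be checked against its markers. The part of these cell types in the receptor values was not tested.

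The nuclear receptors that pair with RXRs were read as gene means. Of 11 measured RXR partner receptors none passed at any of the 3 times, when 2.66%, 4.71% and 5.91% of all 4736 genes did, so a count of 0 is near the background. Under spike-in scaling 2, 2 and 3 of the 11 were 2-fold higher, as were 9.42%, 10.3% and 15.7% of all genes. The list medians were 0.06, 0.16 and 0.07, beside -0.09, -0.12 and -0.12 for all genes. Ppara, the fatty acid sensor, was at 0.78, 0.40 and 0.83 at 4, 8 and 24 h. The thyroid hormone receptor gene Thra was at -0.24, -0.24 and -0.59 as the mean of 3 probe sets that were each below VAD at 24 h. The other thyroid hormone receptor gene, Thrb, was at -0.10, 0.22 and 0.55, from 1 probe set. The bile acid receptor gene Nr1h4 was at 0.13, -0.37 and -0.74, and the vitamin D receptor gene Vdr at 0.06, 0.16 and 0.07.

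Orphan receptors that can occupy the same response elements were measured in 5 of 9, with none past 2-fold as a gene mean. Of all genes 2.66%, 4.71% and 5.91% were past 2-fold at 4, 8 and 24 h. Among the 9 orphan receptor probe sets, 1 was past 2-fold at each time, beside 3.8%, 6.57% and 8.09% of all probe sets. Nr2f1 (COUP-TFI), named after its values were seen, had probe sets that disagreed at 4 h, at -0.48 and -1.28, with a mean of -0.88. Spike-in scaling put 1, 0 and 2 of the 5 orphan receptor genes 2-fold higher at 4, 8 and 24 h. It did so for 9.42%, 10.3% and 15.7% of all genes. Without that scaling the medians of the orphan receptors were -0.07, 0.02 and 0.36. Hnf4a, a liver and gut factor that binds DR1 elements, was at 0.30, 0.44 and 0.74, from probe sets at 0.46 to 1.20 at 24 h. Its probe set D10554_s_at was past 2-fold at 8 h (1.39) and 24 h (1.20), and the other 2 were not. Nr2f2 (COUP-TFII, a repressor at retinoic acid response elements) was at -0.16, 0.02 and 0.43. Nr2c2 (the testicular receptor TR4) was at 0.71, 0.40 and 0.36. Coregulators were measured in only 5 of 20 and none passed 2-fold. Under spike-in scaling 1 did at 24 h, higher, as did 15.7% of all genes. The coactivator gene Ncoa1 (SRC-1) was at 0.29, 0.37 and 0.44. The mediator subunit gene Med1 was at -0.15, -0.25 and -0.57, the corepressor deacetylase gene Hdac2 at -0.47, -0.47 and -0.67, and Psmc5, a proteasome ATPase that binds nuclear receptors, at -0.39, -0.56 and -0.89. The list median was -0.57 at 24 h, beside -0.12 over all genes, and spike-in scaling adds 0.62 to both.

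**Figure D3:**
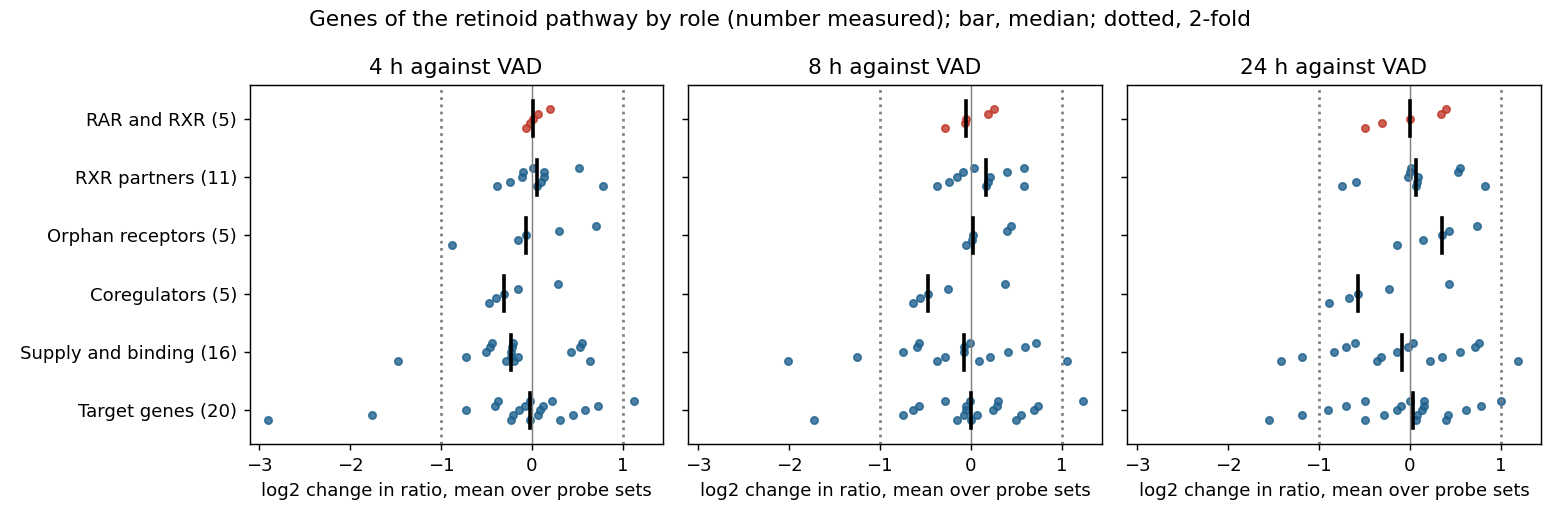
Log2 change in deposited ratio (horizontal axis, mean over the probe sets of a gene) at 4, 8 and 24 h against VAD for genes of the retinoid pathway grouped by role (vertical axis, number measured in brackets); each point is a gene, bars are medians and dotted lines mark 2-fold. The 5 receptor genes lie between -0.50 and 0.40, and points past 2-fold occur only among the supply and binding genes and the target genes.

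Genes that supply or bind the receptors' ligand had list medians of -0.23, -0.07 and -0.08 at 4, 8 and 24 h. Of 16 measured genes of retinoid supply and binding, 0 were 2-fold higher and 1 lower at 4 h, and 1 was higher and 2 lower at 8 h and again at 24 h. Over all genes 1.41%, 2.83% and 3.27% were 2-fold higher and 1.25%, 1.88% and 2.64% lower at the 3 times. Centring left the counts of this list as they were, with 1.88%, 3.72% and 4.20% of all genes higher and 0.887%, 1.27% and 1.75% lower. Spike-in scaling turned their balance, to 3, 3 and 4 genes higher and 0, 1 and 0 lower, with 9.42%, 10.3% and 15.7% of all genes higher and 0.232%, 0.317% and 0.274% lower. Crabp2, which carries retinoic acid to the RARs, had ratios of 0.394, 0.238, 0.235 and 0.174 in VAD and at 4, 8 and 24 h. It was low on every array and lowest at 24 h, and it is also counted among the targets that were 2-fold lower at 24 h. Fabp5, a carrier that can hand retinoic acid to PPAR delta, had ratios of 1.032, 0.728, 0.432 and 0.387. Among the retinol and retinoid enzymes past 2-fold, Rdh10 was at 2.04 and Rpe65 at 0.223 at 8 h, and Adh4 at 2.681 at 24 h, as ratios.

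Of 20 measured retinoic acid target genes, Rarb included, 1, 1 and 1 were 2-fold higher and 2, 1 and 2 lower at 4, 8 and 24 h, where 2.66%, 4.71% and 5.91% of all genes passed in either direction. Under spike-in scaling 4, 4 and 5 were higher and 2, 1 and 0 lower, so the balance at 24 h turned. That scaling adds the same shift to every gene. Of all genes 9.42%, 10.3% and 15.7% were then higher and 0.232%, 0.317% and 0.274% lower. The cell cycle inhibitor gene Cdkn1a was higher at 4 h and 8 h (1.12 and 1.23, the mean of 2 probe sets that were both above VAD). Of these, L41275cds_s_at was past 2-fold, at 1.35 and 1.65, and U24174_at was not, at 0.90 and 0.82. Kit, the receptor of differentiating spermatogonia, had ratios of 0.800, 1.078, 1.239 and 1.352 on one probe set and 0.777, 1.084, 1.326 and 1.853 on the other. Both were higher on each later array, as were 2 of the 3 Rara probe sets and 8.76% of all probe sets. The 24 h changes of the Kit probe sets were 0.76 and 1.25, with a mean of 1.01. The forkhead factor gene Foxa2 had ratios of 0.696, 0.0933, 0.211 and 0.238, and the pituitary factor gene Pou1f1 of 0.825, 0.243, 0.530 and 0.444, each lowest at 4 h. Each was read by 1 probe set, and the ratios do not tell whether it was above background. The list medians were -0.02, 0.00 and 0.04.

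The 2 genes nearest each receptor in pattern were found by Euclidean distance over the 3 log2 changes against VAD, among 4735 other genes. For Rara they were Tef and Prdm2 (distances 0.01 and 0.02), and for Rarb R3hcc1 (0.0043) and Nppa (0.029). For Rxra they were Pelo (0.024) and Skic8 (0.039), for Rxrb Cnksr2 (0.012) and Epn2 (0.043), and for Rxrg Atp6v1a (0.024) and Asnsd1 (0.027). Many other genes were nearly as close. Within a distance of 0.2, well under the spread of a probe set, there were 193 genes around Rara, 444 around Rarb, 180 around Rxra, 117 around Rxrb and 219 around Rxrg.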

How the data were processed

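Whole rat testis was profiled on an Affymetrix array, with biotinylated cRNA made from 10 micrograms of total RNA per the labels' protocols. The values deposited by the authors are linear ratios per probe set. Per the submitters' processing notes, the software was GCOS and MAS5 (version unstated). The sources used here do not give the step from signal to ratio, the reference or the scaling. Of 8799 probe sets, 59 controls and 308 with several symbols were left out, as were those the annotation table does not list. Symbols were updated by Entrez ID, of which 6985 of 7006 matched the RefSeq table (GRCr8).

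Ratios were put on the log2 scale, and a gene was the mean of its probe sets (pandas 2.3.3, numpy 2.4.6). Past the threshold means 2-fold or more. The spread estimate was checked on simulated data with an SD of 0.5 for the 4 h against VAD step (1075 genes) and returned 0.51. That covers the calculation only, not how well pairs of probe sets stand for the error of a receptor probe set. Precision is limited by 1 array per group.

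The members and lists were chosen with earlier results of these data known. Named genes are the receptor probe sets, the 2 nearest genes per receptor and, of each of 6 pathway lists, those past 2-fold against VAD and the 3 with the largest 24 h change. Thrb, Vdr, Ncoa1, Nr2f1 and LOC102555617 were added after their values were seen. Alternatives were other scalings, references, thresholds and probe set summaries.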

Additional observations from a re-analysis of the deposited data

How the results depend on the processing

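The counts of receptor probe sets past 2-fold were 0 in all 5 comparisons and stayed 0 under centring of each array. At 24 h against VAD the count became 3 under spike-in scaling (AJ002940cds_s_at and U15211_g_at of Rara, and Rxrb), with 18.5% of all probe sets past 2-fold, and 1 under a 1.5-fold threshold (AJ002940cds_s_at), where 27.2% of all probe sets pass. From 8 h to 24 h it became 1 under the 1.5-fold threshold (AF016387_at of Rxrg), where 7.59% of all probe sets pass. Of 15 gene changes against VAD, spike-in scaling moved 12 by more than the spread of a gene's mean (that of 1 probe set divided by the square root of their number) and turned the sign of 7. Centring turned the sign of 4 and the reference of the ratios in place of VAD that of 2, by at most 0.11 and 0.13. The median over probe sets turned none, and taking the probe set of highest mean ratio turned 1. With all pairs of probe sets the spread was 0.39, 0.46 and 0.51 at 4, 8 and 24 h. Counts of pathway genes past 2-fold under centring and spike-in scaling were computed after seeing the data. Centring changed none of them. No paired analysis was possible because each group holds 1 array. No replicate could be left out for the same reason. Ratios hold no signal over background, so dim probe sets cannot be set apart.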
